A study of Mus musculus with 11 samples.

Results

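miR-21a is the mouse form of microRNA-21, a small RNA that is cut as 2 arms, mmu-miR-21a-5p and mmu-miR-21a-3p, from the Mir21a hairpin; the species prefix is left out below. Both arms were on the array, so that 2 of its 1247 miRNAs are described here, chosen by name and over all 11 arrays. Each array was hybridised with Cy3-labelled total RNA from GFP+ cardiac macrophages of Cx3cr1GFP/+ mice, 2 to 3 months old. These mice carry GFP in 1 copy of the gene for the fractalkine receptor, and all groups share that knock-in. Group day 0 came from hearts without surgery and held Ly6Clow/CX3CR1high macrophages (2 arrays). The injured groups followed cryoinjury, a freezing lesion used as a model of myocardial infarction. They held Ly6Chigh/CX3CR1low macrophages at day 3 (3 arrays) and Ly6Clow/CX3CR1high macrophages at day 7 (3 arrays) and day 30 (3 arrays). Since day 3 alone held Ly6Chigh cells, its stage and its population cannot be told apart, and no group with sham surgery was analysed here. The labels describe independent biological replicates, and precision is limited by how few arrays there are.

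Most animal miRNAs act by pairing their seed, the bases near the 5′ end, with sites in messenger RNAs, which lowers the output of those messages. The 5p arm of miR-21 is the guide strand, the one that is loaded into Argonaute in most tissues, and the 3p arm is the passenger strand, most of which is discarded. Transcription of the miR-21 locus is known to be driven by STAT3 and AP-1, and TGF-beta signalling is known to favour its maturation through SMAD proteins. Known targets of the 5p arm include the ERK inhibitor gene Spry1 and, in macrophages, Pdcd4, whose product favours inflammatory signalling. In the heart, miR-21 is best known from fibroblasts and macrophages in scarring and fibrosis.

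The mature sequences were taken from RefSeq (build GRCm38.p6), in which 1031 of the 1247 array miRNAs had an entry. They are shown to separate miR-21a-5p from its close relatives on the array, with bases 2 to 8, the seed, in capitals.
miR-21a-5p: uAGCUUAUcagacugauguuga
miR-21a-3p: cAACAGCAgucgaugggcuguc
miR-21c: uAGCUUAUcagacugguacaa
miR-21b: uAGUUUAUcagacugauauuucc
Mature miR-21a-5p (22 bases) lies at chr11:86584120-86584141 and miR-21a-3p at chr11:86584082-86584103, both on the minus strand. Only miR-21c (chr8:128278188-128278208, minus strand) shared the seed with miR-21a-5p among the matched array miRNAs. The array's miR-590-5p had no entry, so its seed was not compared. Counted from 1 at the 5′ end, with the base of miR-21a-5p first, miR-21c differed at 5 of 21 positions (A16G, G18A, U19C, U20A and G21A). miR-21b (chr3:29636768-29636790, plus strand) differed at 4 of 22 positions (C4U, G18A, G21U and A22C), 1 of them in the seed.

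The hairpin of 92 bases (chr11:86584067-86584158, minus strand) lies within Vmp1, a gene on the same strand that encodes a membrane protein of autophagy. It is given with the 5p arm, which starts at base 18, and the 3p arm, which starts at base 56, in capitals.
Mir21a hairpin: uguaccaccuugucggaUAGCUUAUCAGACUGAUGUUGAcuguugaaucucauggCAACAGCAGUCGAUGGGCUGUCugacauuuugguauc

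The relatives gave no signal that the scanner software called detected. miR-21b (1.18 to 1.97 scanner units), miR-21c (1.18 to 1.97) and miR-590-5p (0.963 to 1.61), a miRNA usually grouped with the miR-21 family, were detected on 0 of 11 arrays. The miR-21a-5p signal was detected on 11 of 11 arrays. It lay between 90.7 and 32517 scanner units, a 359-fold range, with a scanner error of 7.90% to 8.89% of the signal.

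Part of that range moved with the whole array. Array brightness, taken as the 75th percentile of 126 miRNAs that every array detected, spanned 41.4-fold. It was 55.7 to 163 units on the day 0 arrays, 805 to 1607 units on those of day 3, 114 to 323 units on those of day 7 and 1453 to 2304 units on those of day 30. The arrays detected 151 to 173 miRNAs for day 0 and 208 to 270 for day 7, but 301 to 338 for day 3 and 290 to 340 for day 30. Replicates 2 and 3 of day 30 were closer than scanner error alone would leave them, with a squared difference 0.209 times that expected, against 2.74 to 43.1 times for the other 9 pairs. Their mean was taken as 1 sample, for 10 samples in all. The 3 measures that set miR-21a-5p against other miRNAs of the same array are its share of an array's total miRNA signal, its rank on the array, and its level, the log2 of signal over the 75th percentile. They need not take brightness out in full. The dimmer day 0 array (55.7 units) had a share of 0.492%, rank 25 and a level of 0.70, and the brighter (163 units) 1.38%, rank 16 and 1.14. Only the level was also fitted with brightness as a covariate. The brightness of day 0 and day 7 did not overlap with that of day 3 and day 30. Across that gap the covariate rests on the spread of brightness within groups. A call kept or lost with it therefore cannot separate group from brightness there.

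miR-21a-5p took a small share of the signal in the uninjured heart and a far larger one at day 3 and day 30. The share was 1.38% and 0.492% on the day 0 arrays. It was 10.6%, 9.11% and 11.3% on the day 3 arrays. It was 3.39%, 2.46% and 3.40% on the day 7 arrays, and 8.64%, 8.63% and 9.13% on the day 30 arrays. Day 0 was lowest, then day 7, and neither overlapped with another group. The arrays of day 30 and day 3 overlapped, since replicate 3 of day 30 (9.13%) lay above replicate 2 of day 3 (9.11%). How many other miRNAs have shares without overlap was not counted. On the level, 19.5% to 78.3% of the tested miRNAs had no overlap between 2 groups. The group means were 0.936% ± 0.628 at day 0 (SD, n = 2 samples), 10.3% ± 1.10 at day 3 (n = 3), 3.08% ± 0.537 at day 7 (n = 3) and 8.76% ± 0.170 at day 30 (n = 2). On log2 shares, a two-sided exact permutation test across the 4 groups gave F = 29.1 and p = 0.000317, where 25200 assignments allow no p below 0.000159. Because each array measured RNA of a sorted population, a larger fraction of cells with miR-21a and more of it per cell cannot be told apart.

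**Figure D1:**
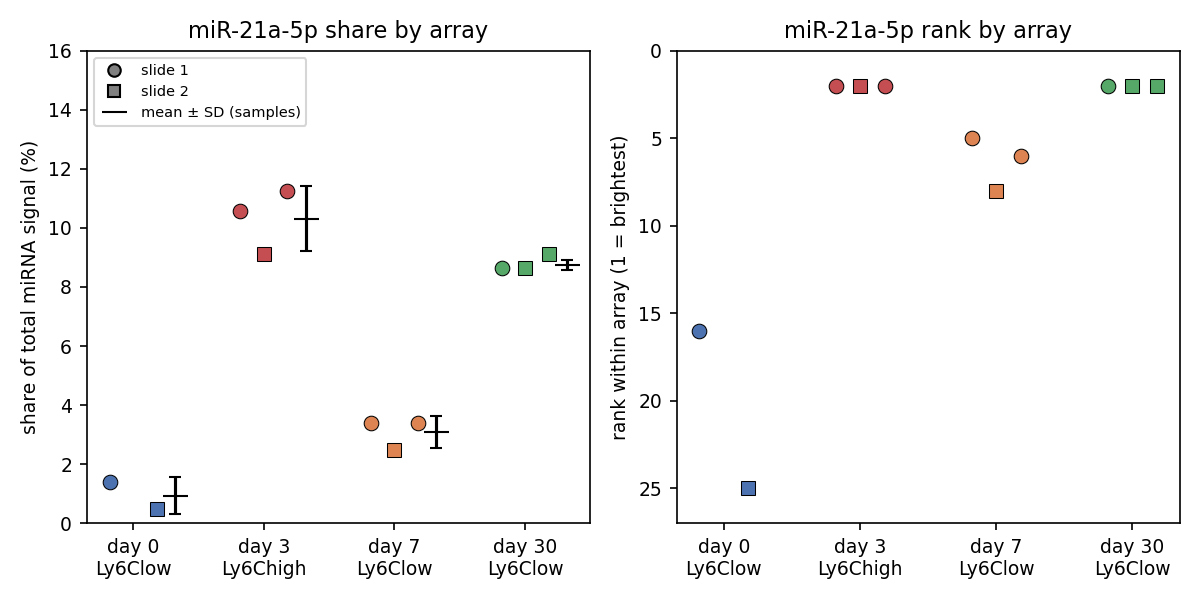
Share of the total miRNA signal (left, in percent) and rank within the array (right, 1 is the brightest of 1247 miRNAs) of miR-21a-5p, 1 point per array, with circles for slide 1 and squares for slide 2. Black bars give mean ± SD over samples. The day 3 arrays sit between 9.11% and 11.3% and the day 30 arrays between 8.63% and 9.13%, all at rank 2, while the day 0 arrays sit at 0.492% and 1.38%.

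The share depends on what else is counted in the total. miR-6366 was the brightest on 10 of the 11 arrays and took 19.9% to 24.3% of the day 0 signal, 27.3% to 30.3% of that of day 3, 9.45% to 34.9% of that of day 7 and 23.1% to 26.5% of that of day 30. Without it, the share of miR-21a-5p was 0.649% to 1.72% on the day 0 arrays, 13.1% to 15.5% on the day 3, 2.72% to 5.21% on the day 7 and 11.3% to 11.9% on the day 30 arrays. Over this smaller total the 4 groups did not overlap, with day 30 below day 3. Separation by this share was not counted for other miRNAs.

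By rank, miR-21a-5p was 16th and 25th on the day 0 arrays, 2nd on each of the 3 day 3 arrays, 5th, 8th and 6th on the day 7 arrays and 2nd on each of the 3 day 30 arrays. miR-6366 alone stood above it on the 6 arrays of day 3 and day 30. The next below it was miR-223-3p, an abundant miRNA of neutrophils and monocytes, on the day 3 arrays, and miR-3963 on the day 30 arrays. The exact permutation test on ranks across the 4 groups gave F = 21.7 (two-sided p = 0.00159). On the day 0 arrays miR-24-3p and miR-29a-3p stood next above it and miR-3960 and let-7i-5p next below. The next above on the day 7 arrays were miR-6243_v19.0, let-7b-5p and miR-3963, and the next below miR-5126, miR-3960 and miR-494-3p.

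The level of miR-21a-5p was 1.14 and 0.70 (log2 of signal over the 75th percentile) on the day 0 arrays. It was 4.51, 4.33 and 4.34 on the day 3 arrays and 2.91, 2.28 and 2.52 on the day 7 arrays. It was 3.77, 3.80 and 3.79 on the day 30 arrays. The 4 groups did not overlap on this scale. Absence of overlap was common among the 369 miRNAs tested: 65.6% of them had none between day 3 and day 0, 19.5% between day 7 and day 0, 78.3% between day 30 and day 0, 64.2% between day 7 and day 3, 74.5% between day 30 and day 3 and 71.3% between day 30 and day 7. Means were 0.92 ± 0.31 at day 0, 4.39 ± 0.10 at day 3, 2.57 ± 0.32 at day 7 and 3.78 ± 0.02 at day 30 (SD over samples). In limma, an F test across the 4 groups gave 27.4 with an adjusted p of 0.000272 for miR-21a-5p, the 9th lowest p of the 369 miRNAs tested; 78.9% of them passed. All p-values below are from this model of 10 samples, adjusted by Benjamini-Hochberg over the 369 miRNAs of each comparison, and a miRNA is said to rise or fall where that value was under 0.05.

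The comparison of day 3 with day 0 asked how Ly6Chigh macrophages early after injury differed from the Ly6Clow macrophages of an uninjured heart. miR-21a-5p was 11.1-fold higher at day 3 (log2 difference 3.47, SE 0.41, 95% interval 2.59 to 4.34, adjusted p = 0.000149), higher on 3 of 3 arrays than on either day 0 array. In this comparison 55.3% of the tested miRNAs were called and 16.3% were called higher. The calls were 60 higher and 144 lower, but 250 higher and 1 lower without scaling between arrays. The median difference over the 126 miRNAs detected on all arrays was -0.77, so that miR-21a-5p stood 4.23 above it and had the largest rise of the 126. The 2 slides, each with arrays of both groups, gave 3.28 on slide 1 and 3.62 on slide 2. The arrays also differed in brightness (805 to 1607 units at day 3, 55.7 to 163 at day 0). With log2 brightness as a covariate the difference was 2.61 (adjusted p = 0.0224).

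Day 7 was set against day 0 to compare Ly6Clow macrophages after injury with those of the uninjured heart, a comparison within 1 labelled population. miR-21a-5p was 3.13-fold higher at day 7 (log2 difference 1.65, SE 0.41, 95% interval 0.77 to 2.52, adjusted p = 0.0393). Few miRNAs passed here: 3.79% of the 369 were called, 3.25% higher and 0.542% lower. The rise of miR-21a-5p was the 3rd highest of the 126 miRNAs detected on all arrays, whose median difference was -0.21. It was 1.57 on slide 1 and 1.58 on slide 2, and 1.37 with brightness as a covariate (adjusted p = 0.0217). Of 31 alternative settings, 29 gave a test and the 2 slides read alone did not. The call was near the threshold. It was lost in 9 of 31 alternative settings, among them cyclic loess (0.74, adjusted p = 0.524) and leaving out day 3 replicate 1, 2 or 3, day 7 replicate 1 or 3, or day 30 replicate 1, where the difference was 1.48 to 1.67 and the adjusted p 0.0842 to 0.156.

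Day 30 against day 0 compared Ly6Clow macrophages of the latest stage with the same uninjured hearts, and so shares the 2 day 0 samples with the 2 comparisons above. miR-21a-5p was 7.25-fold higher at day 30 (log2 difference 2.86, SE 0.44, 95% interval 1.90 to 3.82, adjusted p = 0.000982). Of the tested miRNAs 56.4% were called and 8.94% were called higher. That split rests on the scaling: 33 were higher and 175 lower, but 276 higher and 0 lower in limma without scaling (281 at an unadjusted p under 0.05). The median difference of the 126 miRNAs was -1.06, and miR-21a-5p had the 3rd highest rise, 3.92 above that median. The slides gave 2.62 and 3.09. Brightness separated these groups most (1453 to 2304 units at day 30, 55.7 to 163 at day 0), and with it as a covariate the difference was 1.80 and the call was lost (adjusted p = 0.238). Under cyclic loess it was 1.07 (adjusted p = 0.239).

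Between the injured groups, miR-21a-5p was lower at day 7 than at day 3 (fold 0.283, log2 difference -1.82, SE 0.36, 95% interval -2.60 to -1.04, adjusted p = 0.0033), in a comparison that called 37.1% of the miRNAs, 16% as lower. It was 119th from the highest of the 126 differences, whose median was 0.63. With brightness as a covariate the difference was -1.25 and did not pass (adjusted p = 0.0921). Day 30 was 2.32-fold higher than day 7 (log2 difference 1.21, SE 0.41, 95% interval 0.33 to 2.09, adjusted p = 0.0262), where 47.7% were called and 13.6% called higher. That call was lost with brightness as a covariate (0.43, adjusted p = 0.635), under cyclic loess (0.33, adjusted p = 0.68), and without replicate 2 of day 7 (1.06, adjusted p = 0.0606), replicate 3 of day 7 (1.19, adjusted p = 0.0755) or replicate 1 of day 30 (1.22, adjusted p = 0.155).

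Day 30 and day 3 were the closest neighbours. The level was 3.78 ± 0.02 at day 30 against 4.39 ± 0.10 at day 3, a difference of -0.61 (SE 0.41, 95% interval -1.49 to 0.27) that was not called (adjusted p = 0.266), in a comparison that called 30.9% of the miRNAs. No day 30 array reached the lowest day 3 array. The sign depended on the scaling: without any scaling the difference was 0.23 (adjusted p = 0.818) and with the dmr control features as the scale it was 0.33 (adjusted p = 0.655). Under cyclic loess it was -1.69, and day 30 lay closer to day 7 there (difference 0.33). When only day 30 and day 3 entered the model, -0.61 was called (adjusted p = 0.0107). In the authors' deposited table miR-21a-5p has the same log2 value, 13.87, on all 6 arrays of day 3 and day 30, since quantile normalization gives 1 value to 1 rank.

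Over all groups, Ly6Chigh macrophages of day 3 were also set against the mean of the 3 Ly6Clow groups. miR-21a-5p was 3.91-fold higher at day 3 (log2 difference 1.97, SE 0.31, 95% interval 1.30 to 2.63, adjusted p = 0.000569), with 37.1% of the miRNAs called and 15.7% called higher. All 3 day 3 arrays lay above all 8 Ly6Clow arrays. Such separation was common: day 3 did not overlap with day 0, day 7 or day 30, each taken alone, for 65.6%, 64.2% and 74.5% of the tested miRNAs. The share of miRNAs without overlap against all 8 at once was not counted. The Ly6Clow mean hides a wide spread, since on this scale day 30 (3.78) stood far closer to day 3 (4.39) than to day 0 (0.92). That placing rests on the scaling: under cyclic loess day 30 differed from day 0 by 1.07 and from day 3 by -1.69.

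**Figure D2:**
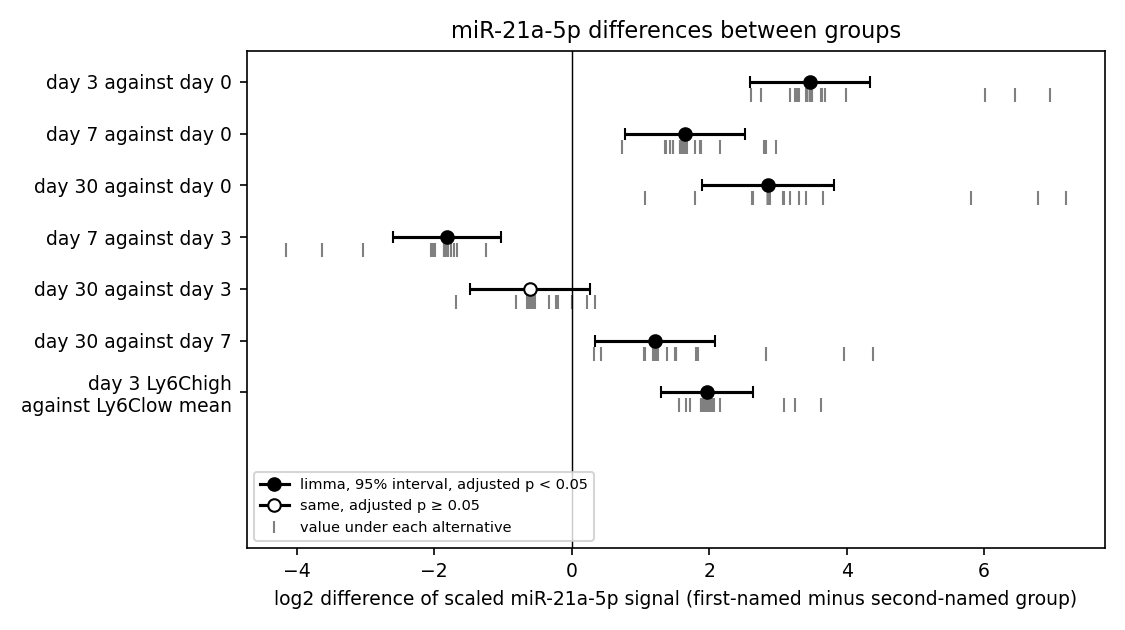
Difference in the log2 level of miR-21a-5p between groups (x axis, first-named minus second-named group), with the 95% interval from limma; filled points passed the adjusted p of 0.05 and the open point did not. Grey ticks give the value under each alternative processing. The difference of day 3 against day 0 is 3.47 and its ticks run between 2.61 and 6.96, while the ticks of day 30 against day 3 lie on both sides of 0.

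Within groups, brightness and level moved together at day 0 and day 7 and not at day 3 or day 30. At day 0 the array of 163 units had a level of 1.14 and that of 55.7 units a level of 0.70. At day 7 the arrays of 323, 260 and 114 units had levels of 2.91, 2.52 and 2.28. At day 3 the brightest array (1607 units) had 4.34, close to the 4.33 of the dimmest (805 units). At day 30 the array of 2304 units had 3.77 and that of 1453 units 3.80. Slide 2 held the dimmer arrays of every group, so that slide and brightness cannot be told apart within groups.

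**Figure D3:**
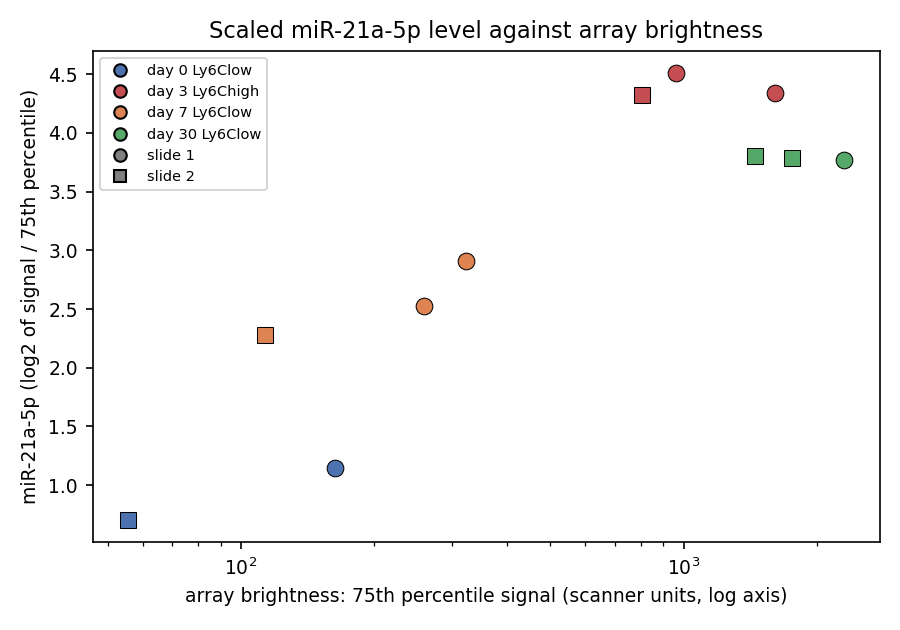
Level of miR-21a-5p (y axis, log2 of signal over the array's 75th percentile) against the array's brightness (x axis, the 75th percentile in scanner units, log axis), 1 point per array. The 2 day 0 arrays and 3 day 7 arrays are the dimmest and lowest, and the 3 day 3 arrays lie above the 3 day 30 arrays at lower or similar brightness.

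Ratios to other abundant miRNAs of the same array need no scaling. Of 9 miRNAs chosen for this, 8 were detected on all arrays (miR-142a-5p was not). The log2 ratio of miR-21a-5p to each of the 8 differed across the 4 groups in a two-sided exact permutation test, with p-values adjusted over the 8 of 0.00127 to 0.0422. Against miR-24-3p, whose own level was 1.18 at day 0, 1.41 at day 3, 1.48 at day 7 and 1.69 at day 30, the mean log2 ratio was 3.24 higher at day 3 than at day 0, 1.35 higher at day 7 and 2.35 higher at day 30 (adjusted p = 0.00127). Against miR-223-3p it was 1.95, 2.48 and 2.54 higher than at day 0 at days 3, 7 and 30 (adjusted p = 0.00635).

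All 8 ratios were higher at day 3 than at day 0 (0.65 to 4.53, median 2.60), and all 8 were higher at day 7 than at day 0 (1.01 to 2.48, median 1.98). At day 30, 7 of 8 were higher than at day 0, and the ratio to miR-142a-3p, a miRNA of all blood lineages, fell by 0.77. The order among the injured groups was less uniform. The ratio was lower at day 7 than at day 3 for 6 of the 8 miRNAs (-2.31 to 0.92 over the 8) and lower at day 30 than at day 3 for 5 of them (-1.42 to 0.58). Against miR-16-5p the changes from day 0 were 1.74, 1.73 and 1.82 at days 3, 7 and 30, nearly equal. This ratio's call across the groups was lost without either replicate of day 0, any replicate of day 3, or replicate 1 or 3 of day 7 (adjusted p of 0.0611 to 0.106). These are changes of ratios, so each also carries the change of the other miRNA. They are no separate evidence beside the level. The 8 are among the 126 miRNAs detected on all arrays. Of those 126, miR-21a-5p had the largest rise at day 3 against day 0, which fixed the sign of all 8 ratios there. Its rise was the 3rd highest at day 7 and at day 30 against day 0, which left little room for a fall.

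**Figure D4:**
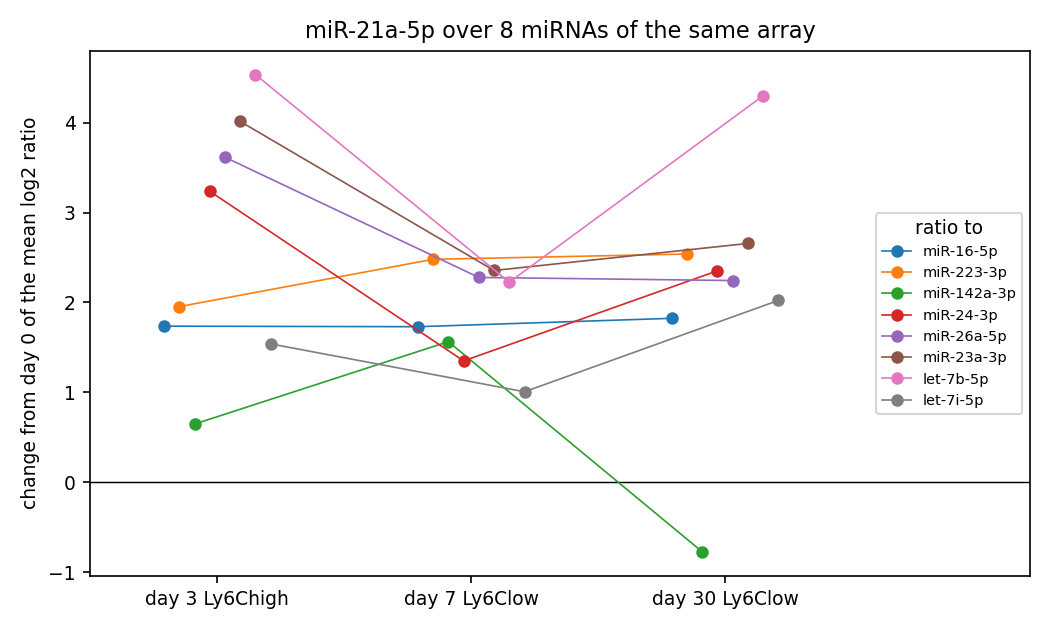
Change from day 0 (y axis, difference of mean log2 ratios) of the ratio of miR-21a-5p to 8 abundant miRNAs of the same array, at days 3, 7 and 30, 1 line per miRNA. All 8 lines lie above 0 at days 3 and 7, and the line of miR-142a-3p lies at -0.77 at day 30.

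The passenger arm was detected on 7 of the 11 arrays. miR-21a-3p had 1.05 and 0.989 scanner units on the day 0 arrays, 19.7, 20.5 and 57.2 units on the day 3 arrays, 4.30, 0.865 and 1.02 units on the day 7 arrays and 41.7, 24.3 and 27.3 units on the day 30 arrays. It was detected on 0 of 2 arrays at day 0, 3 of 3 at day 3, 1 of 3 at day 7 and 3 of 3 at day 30. The dim groups were those with dim arrays, so that detection of the 3p arm followed the same split of the groups as array brightness. On the 7 arrays that detected both arms, the ratio of the 5p to the 3p signal spanned 1.97-fold, while the 5p signal itself spanned 13.4-fold and the 3p signal 13.3-fold. The wide spans rest on day 7 replicate 1 (2426 and 4.30 units), the only 1 of the 7 outside day 3 and day 30. Within day 3 the ratio spanned 1.95-fold, the 5p signal 2.01-fold and the 3p signal 2.90-fold. Within day 30 they spanned 1.18-fold, 1.55-fold and 1.71-fold.

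Scaled levels of the 3p arm gave a weaker contrast. At day 3 it was at least 1.55-fold higher than at day 0, where it was not detected (measured mean levels -5.24 at day 3 and -6.55 at day 0), and the fit did not call it (adjusted p = 0.0704). The call depended on the processing: 11 of 28 alternatives called it (fitted log2 differences of 1.31 to 3.90, adjusted p of 0.000351 to 0.0487), among them no scaling (3.78), quantile normalization (2.37), scaling to the total signal (1.48), the authors' deposited table (3.90) and leaving out day 0 replicate 2 (2.05) or day 7 replicate 1 (1.31). It was lower at day 7 than at day 3 (log2 difference -1.85, SE 0.52, adjusted p = 0.0156). On 2 of the 3 day 7 arrays the arm was not detected, and the call was lost without day 3 replicate 3 (adjusted p = 0.0754), without day 7 replicate 3 (adjusted p = 0.0822), with brightness as a covariate (adjusted p = 0.132) and with the highest floor (-0.10, adjusted p = 0.536). The same bound left no fold to report at day 30 against day 0.

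**Figure D5:**
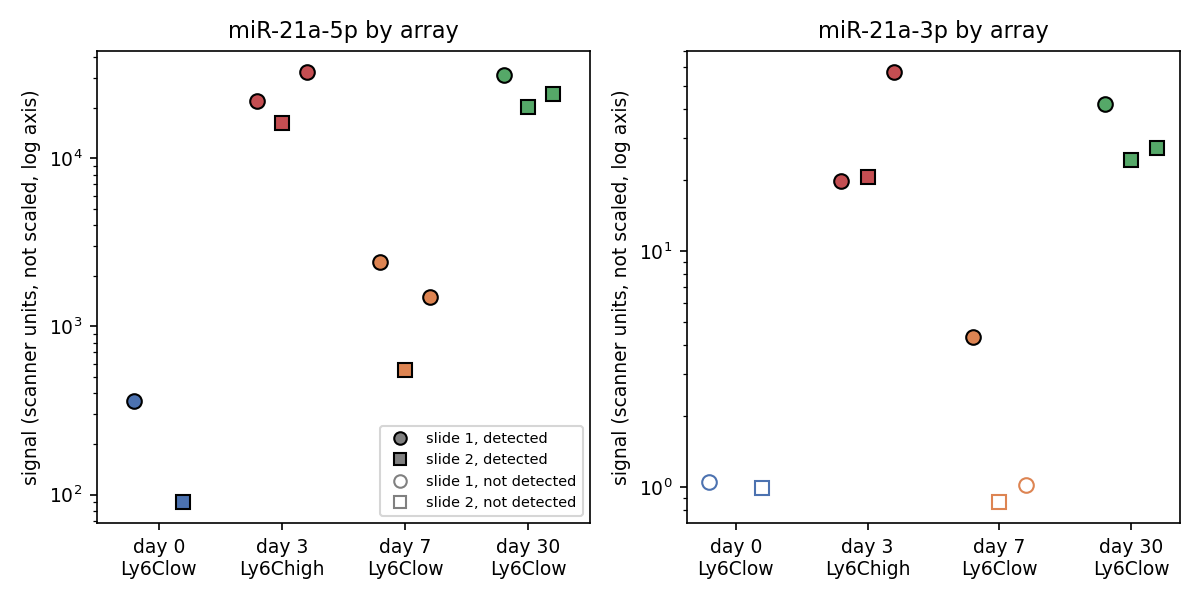
Unscaled signal (y axis, scanner units, log axis, a separate scale for each panel) of miR-21a-5p (left) and miR-21a-3p (right) on each array, with circles for slide 1, squares for slide 2 and open symbols where the arm was not detected. The 3p arm is at 19.7 to 57.2 units at day 3 and 24.3 to 41.7 units at day 30, and near 1 unit on the 4 arrays that did not detect it.

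The miRNAs whose levels ran most like miR-21a-5p over the 10 samples were sought among the other 125 detected on all arrays, as a description in which all points share the brightness of their arrays. miR-22-3p came first (Pearson r = 0.97), followed by let-7i-5p (0.87), let-7f-5p (0.85), miR-93-5p (0.83), miR-142a-3p (0.83) and miR-425-5p (0.82). The median r over the 125 was -0.50, with 10 above 0.8 and 23 below -0.8. miR-22-3p was also first by Spearman's rho (0.96) and over log2 shares (0.95). It is encoded elsewhere on the same chromosome (chr11:75463772-75463793, plus strand) and is shown because its seed is not that of miR-21a-5p.
miR-22-3p: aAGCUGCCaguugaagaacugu

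miR-22-3p, a miRNA of muscle and blood cells, had mean levels of -0.69 ± 0.49 at day 0, 0.87 ± 0.11 at day 3, -0.01 ± 0.13 at day 7 and 0.68 ± 0.22 at day 30. It rose at day 3 against day 0 (log2 difference 1.56, adjusted p = 0.0084) and at day 30 against day 0 (1.37, adjusted p = 0.0196). At day 7 against day 0 it differed by 0.68, which did not pass (adjusted p = 0.258). Its group order was that of miR-21a-5p, over a smaller range. Neither call remained with brightness as a covariate (0.96, adjusted p = 0.383, at day 3 and 0.63, adjusted p = 0.652, at day 30).

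let-7i-5p and let-7f-5p belong to the let-7 family, known for repressing growth genes in mature cells, and miR-93-5p to the cluster in the Mcm7 gene. Each was highest at day 3, with mean levels of 2.43, 2.47 and -0.50, and each rose there against day 0 (by 1.93, 1.37 and 2.48 on the log2 scale). Unlike miR-21a-5p they were not called at day 30 against day 0 (0.84, 0.84 and 0.62). miR-142a-3p was highest at day 30 (0.91 ± 0.43), above day 3 (0.10 ± 0.53).

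The opposite pattern was led by miR-709 (r = -0.98), with mean levels of 2.60 at day 0, -0.75 at day 3, 1.16 at day 7 and -0.57 at day 30. miR-5107-5p (-0.93), miR-133a-3p (-0.93), a miRNA of striated muscle, and miR-674-3p (-0.93) came next. Their falls at day 3 against day 0 (miR-709 -3.35, miR-5107-5p -2.77, miR-133a-3p -2.81 and miR-674-3p -1.40) all changed sign when the arrays were left unscaled, which moves each of these differences up by the same amount.

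Other miRNAs known to respond to the factors that drive the miR-21 locus, STAT3, AP-1 and NF-kappaB, were read beside it. Of 10 listed, 8 were tested, and at day 3 against day 0 the test called 4 of them higher (16.3% of all tested miRNAs were) and 1 lower (39%). The 4 were miR-222-3p (at least 6.78-fold, adjusted p = 0.00127, not detected at day 0), miR-221-3p (log2 difference 2.02, adjusted p = 0.00487), miR-155-5p (at least 2.68-fold, adjusted p = 0.0188, not detected at day 0) and miR-181b-5p (1.23, adjusted p = 0.0211). miR-221-3p and miR-181b-5p were each detected on only 1 of the 2 day 0 arrays. Of the 8 tested, miR-146a-5p alone was detected on both. The others met the filter, detection on 2 or more of the 11 arrays, only with arrays of the injured groups. The count of members called higher is therefore not read as a response of the list. miR-221 and miR-222 form a pair known for repressing the cell cycle inhibitor p27, and miR-155 is the classical miRNA of activated macrophages. The member that fell was miR-146a-5p, a known brake on Toll-like receptor signalling, with a level of -4.62 ± 1.26 at day 3 against -0.03 ± 0.49 at day 0 (log2 difference -4.59, adjusted p = 0.000357).

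At day 7 against day 0, 1 of the 8 was called higher, miR-222-3p (at least 5.60-fold, adjusted p = 0.0227), where 3.25% of all miRNAs were. At day 30 against day 0 limma called 0 of the 8 higher (0 at an unadjusted p under 0.05 too), and miR-132-3p was called lower although it was not detected at day 0, which gives no fall to report. miR-21a-5p rose in all 3 of these comparisons. With members undetected in 1 group entered at their bound, the median log2 difference of the list was 1.11 over 8 members at day 3, 0.89 over 7 at day 7 and 0.77 over 7 at day 30, each against day 0. The medians over all tested miRNAs with a value or a bound were -0.07, 0.01 and -0.38. The list's medians have the same limit, since all members but miR-146a-5p met the filter only with arrays of the injured groups. With brightness as a covariate the fitted median of the list turned to -0.70 at day 30.

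A second list held miRNAs of cardiac fibrosis and TGF-beta signalling, of which 14 were tested. At day 3 against day 0 it had 2 members called higher, miR-22-3p and miR-155-5p, and 1 lower, miR-133a-3p, whose fall changed sign without scaling. Its median was -0.15 over 11 members with a value or a bound, near the -0.07 of all miRNAs, and the sign of the list's median changed with the scaling. At day 7 against day 0, 1 member, miR-214-3p, rose (at least 5.46-fold, adjusted p = 0.0393). At day 30 against day 0, 7 of the 14 were called higher (8.94% of all miRNAs were) and 1 lower (47.4% of all), with a median of 1.16 over 13 members against -0.38 for all miRNAs. They included miR-29b-3p, a repressor of collagen genes, at a level of 0.86 ± 0.32 at day 30 against -2.71 ± 0.83 at day 0, and miR-101a-3p, higher by at least 11.5-fold at day 30 (adjusted p = 0.00591) than at day 0, where no array detected it; both were chosen after their values were seen. Without scaling all 14 were called higher at day 30 against day 0, as were 276 of the 369 miRNAs. With brightness as a covariate limma called 0 of the 14 at day 30 against day 0 (2 at an unadjusted p under 0.05), and miR-29b-3p changed sign there.

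Marker miRNAs of other cell types were checked beside miR-21a-5p, since fibroblasts, endothelial cells and lymphocytes also express it. The cardiomyocyte list (6 miRNAs, 3 of them, miR-208a-3p, miR-208b-3p and miR-499-5p, never detected) summed to 0.0798% to 0.0854% of the signal on the day 0 arrays, 0.0113% to 0.0205% on the day 3, 0.0541% to 0.0636% on the day 7 and 0.0351% to 0.0506% on the day 30 arrays. The fibroblast and smooth muscle list (6 miRNAs) summed to 0.0460% to 0.0856% on the day 0 arrays, 0.0457% to 0.0751% on the day 3, 0.117% to 0.239% on the day 7 and 0.211% to 0.228% on the day 30 arrays. Its defining member miR-145a-5p was never detected and miR-143-3p was detected on 5 arrays. The shares of day 3 and day 0 overlapped, and at days 7 and 30 the share was above that of day 0 on every array.

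The endothelial, lymphocyte and erythroid lists were small too. The endothelial pair summed to 0.0461% to 0.134% on the day 0 arrays, 0.140% to 0.201% on the day 3, 0.151% to 0.193% on the day 7 and 0.155% to 0.171% on the day 30 arrays. The lymphocyte miRNA miR-150-5p lay between 0.00282% and 0.0389% over all arrays, and the erythroid list between 0.00633% and 0.0674%, highest at day 30. The myeloid and pan-leukocyte list (miR-223-3p and both miR-142a arms), which does not mark macrophages alone, was larger. It summed to 1.19% to 4.48% on the day 0 arrays, 6.59% to 8.82% on the day 3, 1.21% to 1.98% on the day 7 and 4.92% to 5.91% on the day 30 arrays. The part of the cardiomyocyte, fibroblast, endothelial, lymphocyte and erythroid lists in the miR-21a-5p differences was not tested.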

How the data were processed

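Per the labels' protocols, Cy3 labelling started from 100 ng of total RNA. The submitters' processing notes name Agilent Feature Extraction, without a version. Per the file headers, the deposited scanner files hold an intensity (total gene signal), its error and a detection flag for 1247 miRNAs and 21 controls. The authors' deposited table holds log2 values, quantile normalized, for 317 miRNAs and served as an alternative.

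Signals were scaled to the 75th percentile of 126 miRNAs that every array detected, raised to a floor of 0.00271 (log2 -8.53) where lower, and put on a log2 scale. The 369 miRNAs that 2 or more of the 11 arrays detected were fitted in 1 model with limma 3.58.1 (R 4.3.3, jsonlite 2.0.0) over 10 samples in 4 groups, with 6 residual degrees of freedom and 7 comparisons. Shares, ranks and ratios were tested by exact permutation in Python 3.11.15 (numpy 2.4.6, pandas 2.3.3), and plots were drawn with matplotlib 3.10.9. Where a group never detected a miRNA, "at least" gives the other group's mean over that group's lowest detected scaled signals (or the miRNA's own signal, where higher), as means of log2 values. The fit was tested on simulated data.

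The miRNAs named are both arms, the relatives, the neighbours in rank, the 6 most and 4 least correlated miRNAs, and for each list, at most the 6 members with the largest called change at day 3 against day 0; others are marked. One further list is not reported here. The members, lists and tests were chosen with earlier results of these data known. Alternatives covered the scaling, floor, filter, slide, brightness, weights, samples fitted and each array left out.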

Additional observations from a re-analysis of the deposited data

How the results depend on the processing

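Depth here means signal over background: 151 to 173 miRNAs were detected at day 0, so miRNAs missing there have bounds only. Of the alternatives run, the level of miR-21a-5p kept direction and, where tested, call at day 3 against day 0 in 31 of 31 (2.61 to 6.96), at day 7 against day 0 in 22 of 31, at day 30 against day 0 in 29 of 31, at day 7 against day 3 in 30 of 31, at day 30 against day 3 in 27 of 31, at day 30 against day 7 in 25 of 31, against the Ly6Clow mean in 30 of 30 (1.56 to 3.63) and in the F test in 28 of 28 (7.58 to 106). The counts of 31 and 30 include the 2 slides read alone, which gave a difference of the same sign but no test. A call could be kept or lost in 29 settings of each comparison of 2 groups, and in 28 for the Ly6Clow mean. The tests of share (F of 21.7 to 149, including the 2 totals chosen after seeing the data) and rank kept their calls in 16 of 16 and 13 of 13. Of the 8 ratios, 7 to 8 passed in each of 12 settings, and the ratio lost was that to miR-16-5p.

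Cyclic loess ended the calls of day 7 against day 0 (0.74), day 30 against day 0 (1.07) and day 30 against day 7 (0.33). Brightness as a covariate ended those of day 30 against day 0 (1.80), day 7 against day 3 (-1.25) and day 30 against day 7 (0.43), and with no filter on dim probes, where 1247 miRNAs are tested, day 30 against day 7 (1.21) was lost. Day 7 against day 0 was lost with array weights (1.61) and with only its 2 groups fitted (1.65). Day 30 against day 3 was called under those settings (-0.62 and -0.61) and turned to 0.23 without scaling and 0.33 with dmr controls. The cause of these changes was not tested.

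With each array left out in turn the differences were 3.25 to 3.69 (day 3 against day 0), 1.43 to 1.87 (day 7 against day 0), 2.64 to 3.08 (day 30 against day 0), -1.99 to -1.67 (day 7 against day 3), -0.64 to -0.55 (day 30 against day 3) and 1.06 to 1.38 (day 30 against day 7). Whether equal replicate numbers pair the samples was not settled. Deviations from the group mean had r of -0.25 to 0.50 over 15 pairs of equal number (median 0.07). The median was -0.09 over 30 pairs of unequal number. An r above 0.1 was found for 6 of the 15 and 7 of the 30. In groups of 2 or 3 arrays such deviations are tied to each other, so this check cannot exclude pairing. With a replicate block over 11 separate arrays no call of miR-21a-5p changed (day 3 against day 0 3.48, day 7 against day 0 1.66, day 30 against day 0 2.88, day 7 against day 3 -1.82, day 30 against day 3 -0.60, day 30 against day 7 1.22, Ly6Clow mean 1.97, F 35.1).

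The number of miRNAs called varied with the setting more than 1.5-fold: 204 at day 3 against day 0 (68 with brightness, 1110 without a filter), 208 at day 30 against day 0 (0 in limma with brightness, where 75 had an unadjusted p under 0.05, and 1109 without a filter), 14 at day 7 against day 0 (0 in limma with array weights, where 77 had an unadjusted p under 0.05, and 1011 without a filter), 137 at day 7 against day 3 (58 to 790), 114 at day 30 against day 3 (29 to 244) and 176 at day 30 against day 7 (13 to 303). The direction of the calls moved with the scaling. Without scaling they were 250 higher and 1 lower at day 3 against day 0 (60 and 144 as reported), 45 and 0 in limma at day 7 against day 0 (98 at an unadjusted p under 0.05; 12 and 2 as reported), 276 and 0 at day 30 against day 0 (281; 33 and 175), 2 and 206 at day 7 against day 3 (78 and 59), 76 and 55 at day 30 against day 3 (36 and 78), 234 and 10 at day 30 against day 7 (50 and 126) and 208 and 24 against the Ly6Clow mean (58 and 79).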
